A study of Mus musculus with 20 samples.

Results

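The transcripts of 10 genes for matrix proteases and their inhibitors were followed in mouse hearts: the matrix metalloproteinases Mmp2, Mmp3, Mmp14 and Mmp15, the related proteases Adam8 and Adamts2, and the tissue inhibitors of metalloproteinases Timp1, Timp2, Timp3 and Timp4. They were picked by gene symbol from the 55335 gene IDs of a table of raw counts, and all 10 were found and passed the filter on low counts. The groups were OGFOD1-knockout (KO) hearts given isoproterenol, KO hearts given vehicle, wild-type (WT) hearts given isoproterenol and WT hearts given vehicle, with 5 libraries in each. The mice were C57BL/6N, aged 3 to 5 months and fed the NIH-31 diet. Isoproterenol, a beta-adrenergic agonist that makes the heart enlarge, was dissolved in PBS with sodium ascorbate and delivered for 2 weeks by osmotic minipump, and the vehicle was PBS with sodium ascorbate. OGFOD1 is a prolyl hydroxylase that modifies a protein of the small ribosomal subunit, and the question asked of its loss was whether it alters susceptibility to hypertrophy. The sources used here give neither the knockout allele nor whether each library came from a separate mouse, so p-values measure the spread between libraries only.

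Matrix metalloproteinases are zinc enzymes that cut collagens, proteoglycans and other proteins around cells. Most are secreted or displayed as inactive precursors, and a precursor must lose its propeptide before it can cut. TIMPs block them by filling the active site, and TIMP2 has another use, because together with MMP14 it docks the MMP2 precursor on the cell surface so that a free MMP14 can cleave it. In the heart, fibroblasts and myocytes make several of these proteins, and the balance between them bears on how collagen is laid down when the muscle is overloaded. Transcript counts measure neither the activation of a precursor nor the activity of an enzyme.

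After isoproterenol several of these proteases and inhibitors had more transcript, and Timp4 had less. Mmp2, Mmp14, Adam8 and Timp1 rose in both genotypes. Adamts2 and Timp2 rose in KO hearts, where Timp4 fell. In WT hearts those 3 genes had fold changes of the same sign that did not pass the threshold. Mmp3, Mmp15 and Timp3 passed in neither genotype. No member differed between KO and WT hearts, or responded differently to isoproterenol in KO than in WT hearts, at an adjusted p under 0.05. All adjusted p-values are from edgeR's quasi-likelihood test with Benjamini-Hochberg adjustment over 14878 genes.

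All 10 genes are protein-coding. On the GRCm38 build Mmp2 lies at chr8:92827291-92853420 and Mmp15 at chr8:95352268-95375080, both on the plus strand. Mmp3 lies at chr9:7445822-7455975 and Mmp14 at chr14:54431612-54445364, both on the plus strand. Adam8 lies at chr7:139978932-139992562 on the minus strand and Adamts2 at chr11:50602084-50807573 on the plus strand. The TIMP genes lie at chrX:20870166-20874735 (Timp1, plus strand), chr11:118301069-118355740 (Timp2, minus strand), chr10:86300372-86349506 (Timp3, plus strand) and chr6:115241892-115252205 (Timp4, minus strand). Timp1, Timp3 and Timp4 each sit inside a synapsin gene on the opposite strand. The exons of Timp1 shared no base with Syn1, those of Timp4 shared 90 bases with Syn2, and those of Timp3 shared 1733 bases with Syn3, or 21.3% of the Timp3 exon length. Syn1 had at most 8 counts in a library, Syn3 at most 27 and Syn2 at most 114, against at least 41 for Timp1, 4575 for Timp3 and 257 for Timp4. Gm16201, on the strand opposite Adam8, shared 46 bases with its exons and had 10 to 41 counts, against 12 to 135 for Adam8. Cep295nl lies within Timp2 on the same strand, shared no exon base with it and had 18 to 60 counts. The sources used here do not give the strand setting of the counting, so reads from the shared bases cannot be told apart.

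The promoter sequences of 4 members are shown because these genes span the range of responses: Timp1 and Mmp14 rose in both genotypes, Mmp3 passed in neither, and Timp4 fell in KO hearts. Each runs 5′ to 3′ on the gene's strand, 250 bases before to 50 bases after the start site, on GRCm38.p6 (RefSeq). RefSeq windows were found for 9 of the 10 members, all but Mmp2. Capitals mark matches, on either strand, to the AP-1 motif TGANTCA, the TATA motif TATAAA or the GC box GGGCGG, which do not overlap one another here.
Timp1, chrX:20869916-20870215, plus strand: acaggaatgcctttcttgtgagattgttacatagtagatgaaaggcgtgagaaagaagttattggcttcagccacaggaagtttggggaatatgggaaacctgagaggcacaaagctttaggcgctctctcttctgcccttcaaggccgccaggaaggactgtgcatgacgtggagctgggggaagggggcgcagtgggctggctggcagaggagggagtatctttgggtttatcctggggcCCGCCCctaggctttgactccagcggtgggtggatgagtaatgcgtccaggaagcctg
Mmp14, chr14:54431348-54431647, plus strand: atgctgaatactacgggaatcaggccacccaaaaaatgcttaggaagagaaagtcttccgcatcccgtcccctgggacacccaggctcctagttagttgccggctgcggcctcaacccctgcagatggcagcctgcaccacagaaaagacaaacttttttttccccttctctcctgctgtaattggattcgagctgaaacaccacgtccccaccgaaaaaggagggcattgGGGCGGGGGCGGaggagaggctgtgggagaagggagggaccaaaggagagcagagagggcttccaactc
Mmp3, chr9:7445572-7445871, plus strand: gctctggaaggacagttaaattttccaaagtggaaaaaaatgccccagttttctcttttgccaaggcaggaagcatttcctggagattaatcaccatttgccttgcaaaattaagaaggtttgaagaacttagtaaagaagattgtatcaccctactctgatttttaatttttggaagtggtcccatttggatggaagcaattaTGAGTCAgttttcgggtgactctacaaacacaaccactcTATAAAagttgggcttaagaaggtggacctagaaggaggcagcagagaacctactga
Timp4, chr6:115252156-115252455, minus strand: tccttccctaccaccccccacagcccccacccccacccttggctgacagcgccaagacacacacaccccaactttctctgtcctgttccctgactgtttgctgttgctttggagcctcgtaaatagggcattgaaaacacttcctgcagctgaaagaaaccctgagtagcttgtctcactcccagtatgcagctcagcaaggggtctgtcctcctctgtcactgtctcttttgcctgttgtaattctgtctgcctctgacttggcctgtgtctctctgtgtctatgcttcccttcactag

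The Mmp3 window held the AP-1 letters beginning 46 bases before the start site and the TATA letters beginning 7 bases before it, and no GC box. Among all 32851 promoter windows of the same length, 7.81% held the AP-1 motif and 13.6% held the TATA motif. Timp1 had 1 GC box beginning 8 bases before the start, and Mmp14 had 2 in a row beginning 19 and 13 bases before it. The Timp4 window held none of these motifs. GC boxes were also found in Mmp15, Adam8, Adamts2, Timp2 and Timp3, with 5 in Adamts2, and 35.7% of all windows held at least 1. The cyclic AMP response element TGACGTCA was found in none of the 9 windows and in 1.79% of all windows. Mmp3 was thus the member with AP-1 and TATA letters, and GC boxes were in members that rose (Timp1, Mmp14, Adam8) and in members that passed in neither genotype (Mmp15, Timp3). These are letter matches, and binding was not measured.

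The libraries held between 14609808 and 43671055 counts, of which 55.5% to 61.9% fell on mitochondrially encoded genes. Ogfod1 had 39 to 117 counts per library in KO hearts and 268 to 830 in WT hearts, so every KO library lay below every WT library. Cardiac myocyte markers led every marker list, with summed levels of 19352 CPM or more in every library. CPM relate a gene's counts to a fixed total for every library and are given after TMM scaling, which evens out composition between libraries. In 2 libraries the profile stood apart. KO isoproterenol replicate 5 had 1734 CPM of smooth muscle and pericyte markers against 738 to 775 in the other 4 of its group, and 461 CPM of activated fibroblast markers against 129 to 197. WT vehicle replicate 2 had 136008 counts for Gm42418, a gene overlapping ribosomal RNA sequence, against 1653 to 5644 in the other 19. KO isoproterenol replicate 5 also had the highest sum of erythroid markers in its group, 645 CPM against 309 to 407 in the other 4. Its sums were the lowest of the group for cardiac myocyte markers (19352 CPM against 23701 to 25850) and for endothelial markers (617 CPM against 704 to 716). Values without KO isoproterenol replicate 5 are given beside several of the results that it moved.

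By median level per exon length, a pair of inhibitors led the 10 transcripts. Timp3, whose product stays bound to the matrix, had the highest level in all 20 libraries, with a median of 40.3 RPKM, which is CPM divided by the exon length in kilobases. Timp2 followed at a median of 14.8 RPKM and Mmp2, the secreted gelatinase, at 13.1 RPKM. Timp2 exceeded Mmp2 in 15 of 20 libraries, but in WT isoproterenol hearts Mmp2 had the higher mean, 16.9 against 15.7 RPKM. Mmp15, a membrane-anchored metalloproteinase, had a median of 8.60 RPKM, Timp1 4.64, Timp4 4.17, Adamts2 2.36, Mmp3 2.22 and Mmp14 1.50 RPKM. Adam8, a membrane protease best known from leukocytes, was lowest in all 20 libraries at a median of 0.297 RPKM. Between neighbours in this order the ranges over libraries were apart for Timp3 over Timp2 and for Mmp14 over Adam8, and overlapped for every other pair. Timp1 exceeded Timp4 in 11 of 20 libraries, among them every isoproterenol library, so the order of that pair went with the treatment.

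**Figure D1:**
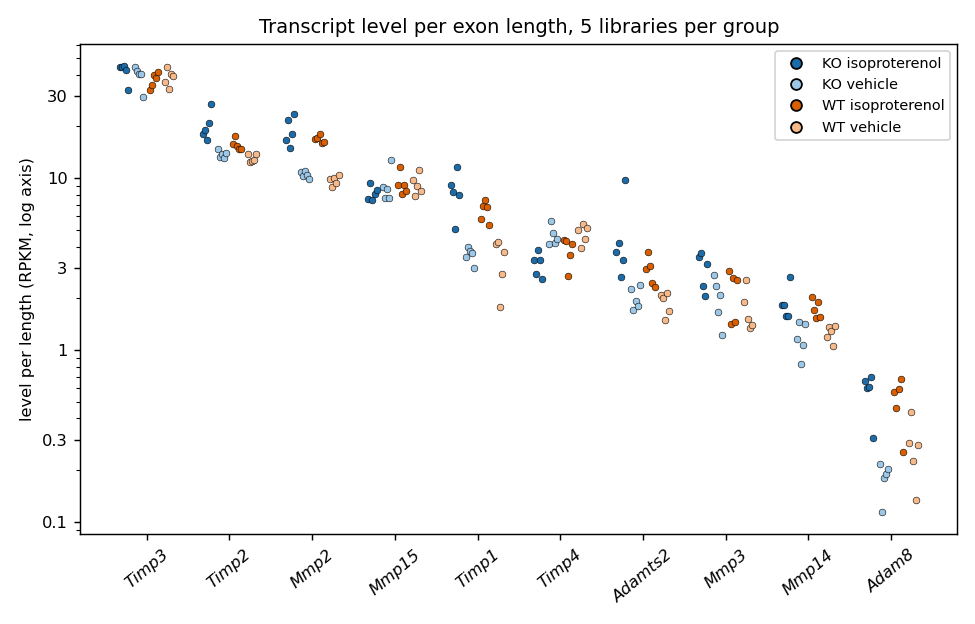
Level per exon length in RPKM, on a log axis, for the 10 genes in order of their median over 20 libraries, 1 point per library and 5 libraries per group. Timp3 (median 40.3 RPKM) lies above all other genes in every library and Adam8 (median 0.297 RPKM) below them, while the Timp1 points of the isoproterenol groups lie above those of the vehicle groups and the Timp4 points of KO isoproterenol hearts lie below those of KO vehicle hearts.

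The first comparison asked how the heart's protease and inhibitor transcripts respond to 2 weeks of isoproterenol. In KO hearts 6 of the 10 members rose and 1 fell, while 9.03% of all tested genes passed, 4.75% higher and 4.29% lower. In WT hearts 4 members rose and none fell, while 8.76% of all tested genes passed, 4.64% higher and 4.12% lower. The median log2 fold change over the 10 members was 0.61 in KO hearts and 0.40 in WT hearts. The medians over all tested genes were 0.0120 and 0.00394. The KO median includes KO isoproterenol replicate 5. Without it the KO values of Mmp14 and Timp2, which lie in the middle of the 10, were 0.50 and 0.44 instead of 0.67 and 0.56. Of the others, some were lower, such as Adamts2 at 0.78, and some higher, such as Adam8 at 1.82. The KO median thus rests in part on this library, and a median without it was not computed. Without TMM scaling the split of all genes that passed moved upward, so that 70.9% of them were higher in KO hearts instead of 52.5%, and 65.5% in WT hearts instead of 53.0%. Both genotypes were compared with their own vehicle hearts, so these comparisons share no library.

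**Figure D2:**
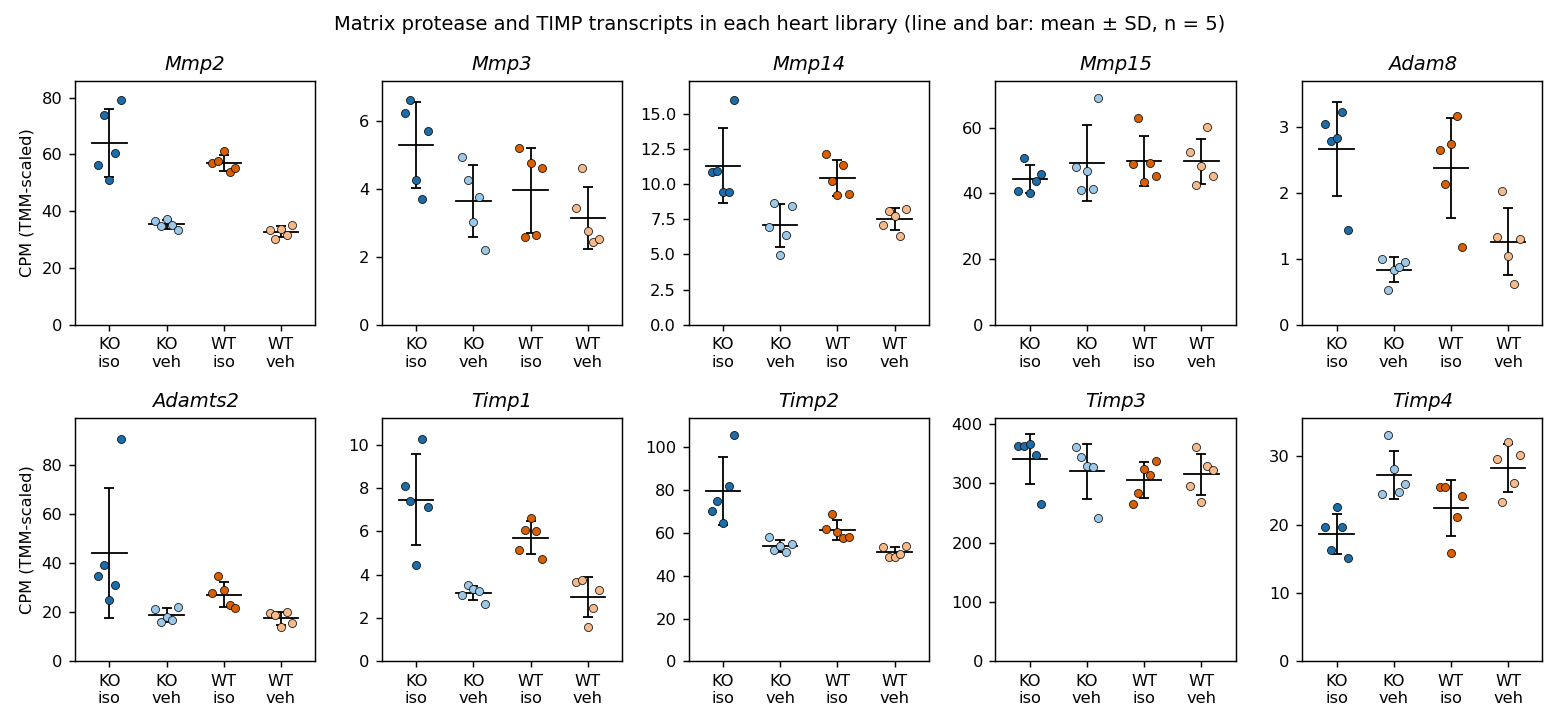
TMM-scaled CPM of each gene in each of the 20 libraries (5 points per group), with the mean as a line and the SD as a bar, from an axis that starts at 0. Isoproterenol libraries of Mmp2, Mmp14, Adamts2, Timp1 and Timp2 lie above the vehicle libraries of the same genotype, and KO isoproterenol replicate 5 reaches 90.5 CPM for Adamts2.

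Among the proteases, Mmp2 gave the clearest response. It had 56.3, 73.8, 50.8, 60.6 and 79.3 CPM in KO isoproterenol hearts, against 36.5, 34.7, 37.3, 35.0 and 33.5 CPM in KO vehicle hearts. In WT hearts it had 56.9, 57.8, 61.2, 53.8 and 55.1 CPM under isoproterenol, against 33.5, 30.1, 33.7, 31.8 and 35.2 CPM under vehicle. Every isoproterenol library exceeded every vehicle library in both genotypes, and the spread was widest among KO isoproterenol hearts, whose coefficient of variation was 18.7% against 4.25% in KO vehicle hearts. The log2 fold change was 0.86 in KO hearts (SE 0.0850, adjusted p = 6.52e-08) and 0.79 in WT hearts (SE 0.0856, adjusted p = 3.45e-07). Without KO isoproterenol replicate 5, its highest library, the values were 0.775 in KO hearts (adjusted p = 3.09e-08) and 0.792 in WT hearts. The difference between the responses, KO minus WT, was then -0.017 instead of 0.067. By p-value Mmp2 ranked at place 12 of all tested genes in KO hearts and at place 16 in WT hearts.

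Mmp14 encodes the membrane-anchored protease that activates the MMP2 precursor. Its levels were 10.9, 10.9, 9.44, 9.43 and 16.0 CPM in KO isoproterenol hearts, against 6.92, 8.67, 4.92, 6.40 and 8.42 CPM in KO vehicle hearts. WT isoproterenol hearts had 12.1, 10.2, 9.21, 11.3 and 9.29 CPM, against 7.09, 8.11, 7.70, 6.33 and 8.23 CPM in WT vehicle hearts. Groups did not overlap in either genotype, and KO isoproterenol replicate 5 was the highest library. The log2 fold change was 0.67 in KO hearts (SE 0.142, adjusted p = 0.00346) and 0.50 without that replicate (adjusted p = 0.00877). In WT hearts it was 0.48 (SE 0.144, adjusted p = 0.0351). This WT call was lost when libraries were scaled by their totals alone (0.52, adjusted p = 0.0872) and when WT isoproterenol replicate 1 or 4 or WT vehicle replicate 1, 3 or 4 was left out, with adjusted p-values between 0.0596 and 0.0960.

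Mmp15, the other membrane-anchored matrix metalloproteinase, showed no change that passed. It averaged 44.4 ± 4.34 CPM in KO isoproterenol hearts and 49.3 ± 11.5 CPM in KO vehicle hearts, and 50.0 ± 7.61 CPM in WT isoproterenol hearts and 49.8 ± 6.88 CPM in WT vehicle hearts (SD, n = 5 each). Its log2 fold change was -0.16 in KO hearts (95% interval -0.44 to 0.12, adjusted p = 0.533) and 0.01 in WT hearts (-0.27 to 0.29, adjusted p = 0.982). Mmp3, the stromelysin, averaged 5.29 ± 1.26 CPM in KO isoproterenol hearts and 3.63 ± 1.06 CPM in KO vehicle hearts. In WT hearts it averaged 3.95 ± 1.26 CPM under isoproterenol and 3.14 ± 0.909 CPM under vehicle (SD, n = 5 each). It had 47 to 135 counts per library. Its intervals ran from 0.05 to 1.05 around a log2 fold change of 0.55 in KO hearts (adjusted p = 0.169) and from -0.22 to 0.85 around 0.31 in WT hearts (adjusted p = 0.503). In KO hearts it passed in 1 of 32 alternatives, the fit of Mmp3 with no filter on low counts (0.54, adjusted p = 0.0121). A change in Mmp3 was thus not established, and the intervals leave room for a rise of the size seen in Mmp2.

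Adam8 had the largest fold change of the 10 genes in KO hearts and the lowest counts, 12 to 135 per library. KO isoproterenol hearts had 3.04, 2.79, 2.84, 3.24 and 1.43 CPM, against 1.00, 0.528, 0.831, 0.881 and 0.947 CPM in KO vehicle hearts. WT isoproterenol hearts had 2.66, 2.14, 2.75, 3.16 and 1.19 CPM, against 1.33, 2.03, 1.04, 0.618 and 1.30 CPM in WT vehicle hearts. The groups were apart in KO hearts and overlapped in WT hearts, where 1 isoproterenol library lay among the vehicle libraries. The log2 fold change was 1.65 in KO hearts (SE 0.270, adjusted p = 0.000179) and 0.99 in WT hearts (SE 0.261, adjusted p = 0.0165). Without KO isoproterenol replicate 5, the lowest library of its group, the KO value was 1.82 (adjusted p = 9.03e-06). The WT call was lost without WT isoproterenol replicate 4 (adjusted p = 0.0726), without WT vehicle replicate 3 (0.0501) and without WT vehicle replicate 4 (0.0557).

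Adamts2 encodes a procollagen N-proteinase, which trims newly made fibrillar collagen. It had 34.6, 39.3, 24.9, 31.0 and 90.5 CPM in KO isoproterenol hearts, against 21.2, 15.9, 18.0, 16.8 and 22.3 CPM in KO vehicle hearts. WT isoproterenol hearts had 27.8, 34.6, 28.9, 22.8 and 21.8 CPM, against 19.5, 18.8, 14.0, 20.0 and 15.6 CPM in WT vehicle hearts. Isoproterenol libraries lay above the vehicle libraries of the same genotype, and KO isoproterenol replicate 5, at 90.5 CPM, lay far above the next library at 39.3 CPM. With it the log2 fold change in KO hearts was 1.23 (SE 0.280, adjusted p = 0.0106), and without it 0.78 (adjusted p = 0.00510). The KO call was lost when KO libraries were fitted alone (1.22, adjusted p = 0.0832). In WT hearts the value was 0.63 (SE 0.285, adjusted p = 0.194), and without KO isoproterenol replicate 5, which enters the shared estimate of spread, it was 0.63 with an adjusted p of 0.0123.

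**Figure D3:**
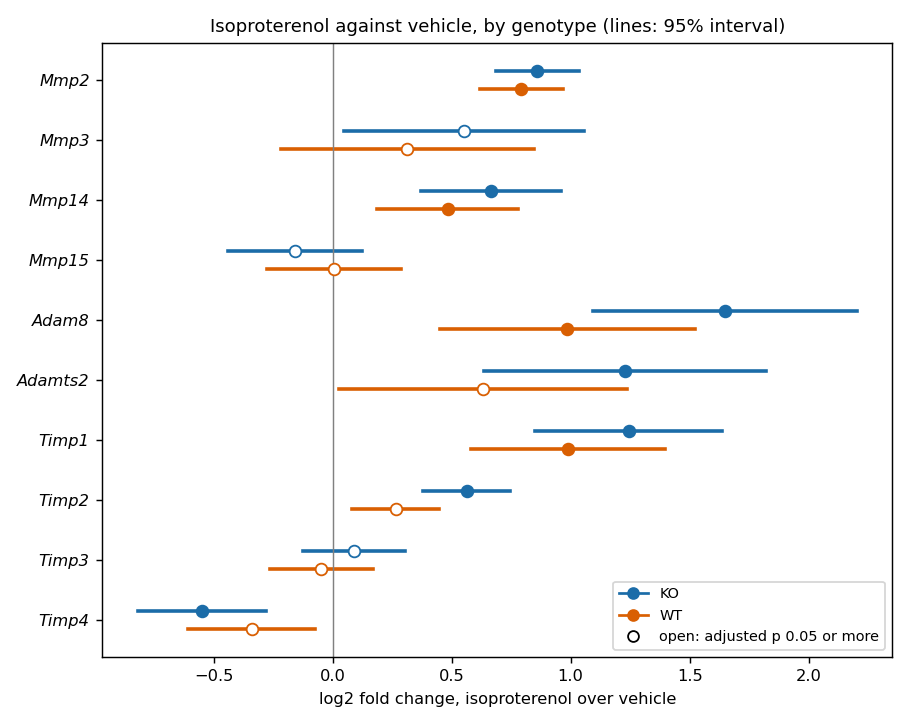
Log2 fold change of isoproterenol over vehicle (points) with its 95% interval (lines) for each gene, in KO hearts and WT hearts, with filled points where the adjusted p was under 0.05. Adam8 in KO hearts lies farthest to the right at 1.65, Timp4 lies left of 0 in both genotypes, and the intervals of Mmp3, Mmp15 and Timp3 are shown with open points.

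Among the inhibitors, Timp1, the secreted TIMP that many cell types induce in injury, rose most. It had 8.08, 7.43, 4.47, 10.3 and 7.11 CPM in KO isoproterenol hearts, against 3.08, 3.54, 3.33, 3.25 and 2.66 CPM in KO vehicle hearts. In WT hearts it had 5.14, 6.08, 6.60, 6.02 and 4.75 CPM under isoproterenol, against 3.67, 3.77, 1.59, 2.47 and 3.28 CPM under vehicle. No isoproterenol library was as low as any vehicle library of its genotype. The log2 fold change was 1.24 in KO hearts (SE 0.190, adjusted p = 0.000124) and 0.99 in WT hearts (SE 0.198, adjusted p = 0.00208). Both calls held in all 32 alternatives.

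Timp2, the inhibitor that also helps MMP14 to activate MMP2, had 70.0, 74.7, 64.7, 82.1 and 105 CPM in KO isoproterenol hearts, against 57.8, 51.8, 53.8, 50.9 and 54.6 CPM in KO vehicle hearts. WT isoproterenol hearts had 61.8, 68.9, 60.2, 57.5 and 57.9 CPM, against 53.6, 48.7, 48.9, 50.0 and 53.7 CPM in WT vehicle hearts. The groups did not overlap in either genotype. The rise was 0.56 on the log2 scale in KO hearts (SE 0.0886, adjusted p = 0.000116) and 0.44 without KO isoproterenol replicate 5 (adjusted p = 5.74e-05). In WT hearts the value was 0.27 (SE 0.0890), and its adjusted p of 0.0598 missed the threshold. It passed in 7 of 32 alternatives, among them the fit without KO isoproterenol replicate 5 (adjusted p = 0.00638).

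Timp4, a TIMP with high expression in heart, was the member that went down. KO isoproterenol hearts had 19.7, 16.3, 22.6, 19.7 and 15.2 CPM, against 24.4, 33.1, 28.2, 24.8 and 25.9 CPM in KO vehicle hearts. WT isoproterenol hearts had 25.6, 25.5, 15.9, 21.1 and 24.2 CPM, against 29.6, 23.3, 32.1, 26.2 and 30.2 CPM in WT vehicle hearts. All KO isoproterenol libraries lay below all KO vehicle libraries, whereas in WT hearts the groups overlapped. Timp4 fell by 0.55 on the log2 scale in KO hearts (SE 0.129, adjusted p = 0.00970), a call kept without KO isoproterenol replicate 5 (-0.47, adjusted p = 0.0343). In WT hearts its log2 fold change was -0.34 (SE 0.128, adjusted p = 0.106), and with neither of the unusual libraries it was -0.40 (adjusted p = 0.0496). It also passed there with limma-voom with quality weights (-0.44, adjusted p = 0.0237).

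Timp3, the most abundant member, did not pass. It averaged 341 ± 42.7 CPM in KO isoproterenol hearts and 320.2 ± 46.3 CPM in KO vehicle hearts, and 304 ± 30.3 CPM in WT isoproterenol hearts and 315 ± 35.1 CPM in WT vehicle hearts (SD, n = 5 each). The log2 fold change was 0.09 in KO hearts (95% interval -0.13 to 0.30, adjusted p = 0.671) and -0.05 in WT hearts (-0.26 to 0.17, adjusted p = 0.837). Without KO isoproterenol replicate 5 the KO value was 0.17 (adjusted p = 0.322). The intervals exclude a change of the size measured for Timp1 or Mmp2.

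Counting groups that did not overlap, 6 members were higher and 1 lower in KO hearts, where 3.75% and 4.31% of all tested genes were so. In WT hearts 5 were higher and none lower, where 4.29% and 3.75% of all tested genes were so. Adamts2 and Timp2 are among these 5 in WT hearts without passing the test, and Adam8 passed the test in WT hearts with overlapping groups.

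The make-up of the TIMP transcripts differed between the treatments. Per exon length, Timp1 made up 11.3% ± 2.71 of the 4 TIMP levels in KO isoproterenol hearts and 5.83% ± 0.360 in KO vehicle hearts, and 10.2% ± 1.25 in WT isoproterenol hearts and 5.50% ± 1.48 in WT vehicle hearts (SD, n = 5 each). Timp4 made up 4.30% ± 0.725 in KO isoproterenol hearts and 7.59% ± 1.07 in KO vehicle hearts, and 6.05% ± 1.27 in WT isoproterenol hearts and 8.10% ± 1.57 in WT vehicle hearts. Timp3 remained the main TIMP transcript in every group, at 56.7% ± 6.66 in KO isoproterenol hearts and 63.9% ± 3.37 in KO vehicle hearts, and 58.9% ± 3.65 in WT isoproterenol hearts and 64.4% ± 2.94 in WT vehicle hearts. The ratio of Timp1 to Timp4 per length ranged over 1.31 to 3.47 in KO isoproterenol hearts and 0.680 to 0.870 in KO vehicle hearts. In WT hearts it ranged over 1.30 to 2.76 under isoproterenol and 0.328 to 1.08 under vehicle. It exceeded 1 in all 10 isoproterenol libraries and was under 1 in 9 of the 10 vehicle libraries. Mmp2 per Timp2 averaged 0.940 ± 0.116 in KO isoproterenol hearts and 0.761 ± 0.0410 in KO vehicle hearts, and 1.08 ± 0.0742 in WT isoproterenol hearts and 0.744 ± 0.0329 in WT vehicle hearts. These shares and ratios restate the levels above and were not tested.

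The genotype comparisons asked whether loss of OGFOD1 alters these transcripts with or without isoproterenol. Under vehicle no member passed, while 0.128% of all tested genes did. With edgeR 0 of 10 members had an unadjusted p under 0.05, as did 1236 of the 14878 tested genes. DESeq2 and limma-voom, with or without quality weights, also called 0 members there. The values of KO over WT lay between -0.55 for Adam8 (SE 0.293, adjusted p = 0.645) and 0.23 for Mmp3 (SE 0.253, adjusted p = 0.891). The 95% interval of Mmp2 was -0.07 to 0.28, that of Timp2 -0.10 to 0.26 and that of Timp3 -0.19 to 0.24, whereas for Adam8 it was -1.15 to 0.05. A difference as large as the isoproterenol response of either genotype thus lay outside the interval for Mmp2. For Adam8, in the direction of less transcript in KO hearts, one as large as its WT response of 0.99 lay within the interval and one as large as its KO response of 1.65 outside it.

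Under isoproterenol again no member passed with edgeR, while 0.181% of all tested genes did. An unadjusted p under 0.05 was found for 3 of 10 members and for 1935 of the 14878 tested genes. Timp2 came closest, with a mean of 79.4 ± 15.9 CPM in KO isoproterenol hearts and 61.3 ± 4.62 CPM in WT isoproterenol hearts (SD, n = 5 each). Its log2 fold change of KO over WT was 0.38 (SE 0.0884, 95% interval 0.19 to 0.56), and its adjusted p of 0.0725 missed the threshold. DESeq2 called it (adjusted p = 0.0169), as did limma-voom with quality weights (0.0488), whereas limma-voom without weights called 0 members. Leaving out KO isoproterenol replicate 3 (adjusted p = 0.0198) or WT isoproterenol replicate 2 (0.0422) also brought it past the threshold, as did edgeR with no filter on low counts or with 2 surrogate variables. It thus passed in 6 of 32 alternatives, with a lowest adjusted p of 0.000288. Without KO isoproterenol replicate 5, the highest KO library at 105 CPM, the value was 0.25 (adjusted p = 0.113), and with libraries scaled by their totals alone the adjusted p was 0.376. The KO and WT libraries overlapped in range, since the lowest KO value of 64.7 CPM lay below the highest WT value of 68.9 CPM. Adamts2 differed by 0.70 (SE 0.275, adjusted p = 0.295) and Mmp2 by 0.17 (SE 0.0839, adjusted p = 0.382). Without KO isoproterenol replicate 5 these values were 0.25 for Adamts2 (adjusted p = 0.569) and 0.08 for Mmp2 (adjusted p = 0.706). No member had KO and WT groups that did not overlap, under either treatment, where 2.02% of all tested genes did under vehicle and 2.14% under isoproterenol.

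**Figure D4:**
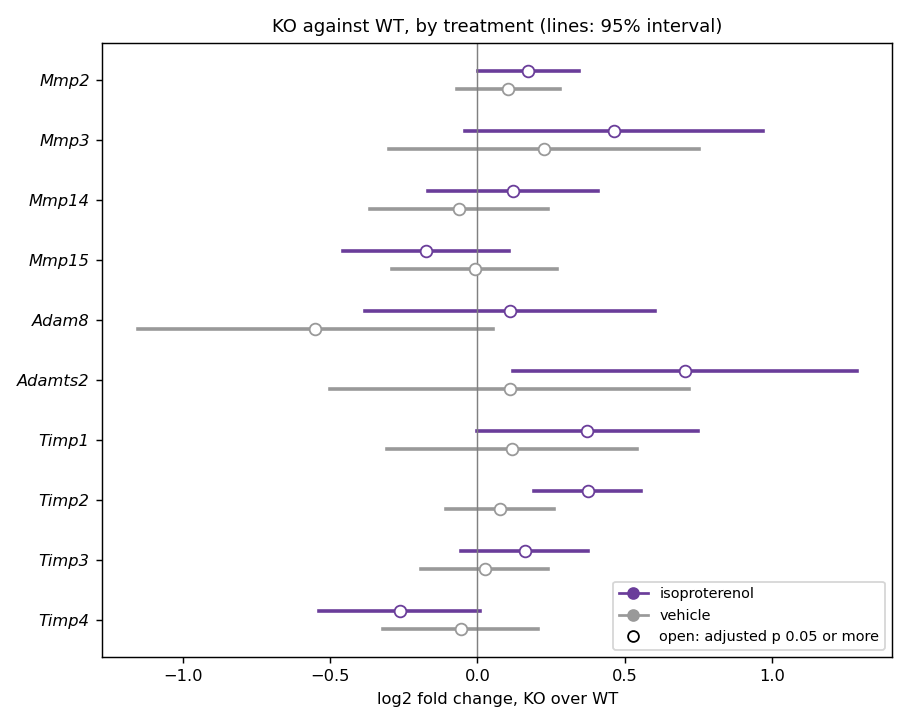
Log2 fold change of KO over WT (points) with its 95% interval (lines) for each gene, under isoproterenol and under vehicle, all with open points because no adjusted p was under 0.05. Timp2 under isoproterenol, at 0.38, has an interval of 0.19 to 0.56 that excludes 0, and the vehicle interval of Adam8 reaches farthest left, to -1.15.

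The difference between the responses, KO minus WT, was tested in the same fit. No member and no other gene passed, so 0% of all tested genes did, while 1142 genes and 1 member, Timp2, had an unadjusted p under 0.05. DESeq2 called 5 genes and no member, and limma-voom called 0 genes with or without quality weights. The difference for Timp2 was 0.30 on the log2 scale (SE 0.125, 95% interval 0.04 to 0.55, adjusted p = 0.585). For Adam8 it was 0.66 (SE 0.379, adjusted p = 0.686) and for Adamts2 0.60 (SE 0.398, adjusted p = 0.732). Without KO isoproterenol replicate 5 the difference was 0.18 for Timp2 (adjusted p = 0.591) and 0.15 for Adamts2 (adjusted p = 0.873). That Adamts2, Timp2 and Timp4 passed in KO hearts and missed the threshold in WT hearts is therefore not a tested difference between the genotypes. For Timp4 the difference was -0.21, with an interval of -0.59 to 0.17, and -0.13 without that replicate.

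Most other MMP genes were hardly detected. Of the 19 other MMP genes, 11 were below the filter, with at most 0.450 CPM in any library, and 8 were tested. Of these 8, 2 rose in KO hearts and none passed in WT hearts. Beside this count and those of the lists below, 4.75% of all tested genes rose in KO hearts and 4.29% fell. In WT hearts 4.64% rose and 4.12% fell. The median log2 fold changes of these lists in KO hearts include KO isoproterenol replicate 5, and medians without it were not computed. Mmp12, the macrophage elastase, averaged 1.47 ± 0.316 CPM in KO isoproterenol hearts and 0.408 ± 0.290 CPM in KO vehicle hearts (log2 fold change 1.93, SE 0.335, adjusted p = 0.000287). Mmp19 rose by 0.60 (SE 0.153, adjusted p = 0.0117). Mmp9, the other gelatinase, stayed between 0.207 and 1.29 CPM in all libraries and did not pass. The median log2 fold change of the 8 was 0.66 in KO hearts and 0.29 in WT hearts. Of 10 other ADAM genes tested, Adam9 and Adam22 rose in both genotypes, and the median was 0.16 in KO hearts and 0.17 in WT hearts. In WT hearts the call of Adam22 was lost in 12 of 32 alternatives and that of Adam9 in 4.

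Of 14 other ADAMTS genes tested, 4 rose and 1 fell in KO hearts, and 3 rose and 1 fell in WT hearts. Adamts6, Adamts12 and Adamts19 rose in both genotypes, with log2 fold changes for Adamts19 of 0.72 in KO hearts (adjusted p = 0.00601) and 0.78 in WT hearts (adjusted p = 0.00272). The WT call of Adamts12 was lost in 15 of 32 alternatives, and its KO value of 0.71 was 0.44 without KO isoproterenol replicate 5 (adjusted p = 0.0421). The median over the 14 was 0.23 in KO hearts and 0.11 in WT hearts. Adamts9, which cleaves proteoglycans such as versican, fell by 0.33 in KO hearts (adjusted p = 0.00813), a call lost when libraries were scaled by their totals alone (adjusted p = 0.105). Of 6 ADAMTS-like genes, which lack the protease domain, none passed in KO hearts. In WT hearts Adamtsl2 rose by 0.80 (adjusted p = 0.000691) and Adamtsl5 fell by 0.49 (adjusted p = 0.00264).

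Among 7 tested genes of procollagen processing, the step that ADAMTS2 shares in, 3 rose and 1 fell in KO hearts and 1 rose in WT hearts, with a median log2 fold change of 0.41 in KO hearts and 0.04 in WT hearts. Pcolce, an enhancer of the C-proteinase, averaged 27.7 ± 2.71 CPM in KO isoproterenol hearts and 20.8 ± 0.686 CPM in KO vehicle hearts (log2 fold change 0.41, adjusted p = 0.000224). In WT hearts it averaged 25.6 ± 1.34 CPM under isoproterenol and 19.0 ± 1.50 CPM under vehicle (0.43, adjusted p = 0.000147). Bmp1, the C-proteinase itself, rose by 0.50 in KO hearts (adjusted p = 0.00896). Tll2, a related proteinase at under 1 CPM in every library, was the gene that fell in KO hearts (adjusted p = 0.00537). Pcolce2 rose by 0.76 in KO hearts, a call lost in 8 of 32 alternatives. Without KO isoproterenol replicate 5 the KO values were 0.40 for Pcolce, 0.42 for Bmp1, 0.37 for Pcolce2 and -1.49 for Tll2.

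Of 15 tested matrix genes on which proteases of these families act, 7 rose in KO hearts, 4 rose in WT hearts and none fell, where 4.75% and 4.64% of all tested genes were higher. The median log2 fold change was 0.64 in KO hearts and 0.29 in WT hearts. Biglycan (Bgn) rose by 0.64 in KO hearts (SE 0.0975, adjusted p = 0.000114) and by 0.48 in WT hearts (SE 0.0977, adjusted p = 0.00237). Lumican (Lum), versican (Vcan) and Col5a2 also rose in both genotypes, though the WT call of Col5a2 was lost in 6 of 32 alternatives. Fibronectin (Fn1) rose by 1.23 in KO hearts (adjusted p = 0.00214). Without KO isoproterenol replicate 5 the KO values were 0.52 for Bgn, 0.53 for Lum, 0.35 for Vcan and 0.99 for Fn1, each still past the threshold. Col1a1, the chain of type I collagen that collagenases cut, did not pass. It ranged over 26.0 to 379 CPM in KO isoproterenol hearts, the highest value being replicate 5, against 13.2 to 45.6 CPM in KO vehicle hearts.

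Lysosomal proteases and other regulators showed a further set of changes. Of 14 cathepsin and cystatin genes, 3 rose in KO hearts and 7 in WT hearts, and none fell. Their median log2 fold change was 0.17 in KO hearts and 0.31 in WT hearts. Ctsk, a collagen-degrading cathepsin, rose by 0.88 in KO hearts (adjusted p = 0.00105) and by 0.61 in WT hearts (adjusted p = 0.0264), and Ctsh and Ctsz also rose in both genotypes. Of 12 other regulators tested, 3 rose and 1 fell in KO hearts and 2 rose in WT hearts. Serpina3n, a secreted serine protease inhibitor, rose by 1.54 in KO hearts (SE 0.289, adjusted p = 0.00288) and by 1.20 in WT hearts (SE 0.295, adjusted p = 0.0178). Bsg, known as an inducer of metalloproteinases, fell by 0.32 in KO hearts (adjusted p = 0.00374). The KO calls of Htra3 and Pcsk5 in this list were lost without KO isoproterenol replicate 5 (adjusted p = 0.0862 and 0.0696). Of 6 genes of the plasminogen system, none passed in KO hearts, and Plat, the tissue plasminogen activator, rose by 0.34 in WT hearts (adjusted p = 0.00919). No gene of these lists passed between genotypes or in the difference between responses.

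**Figure D5:**
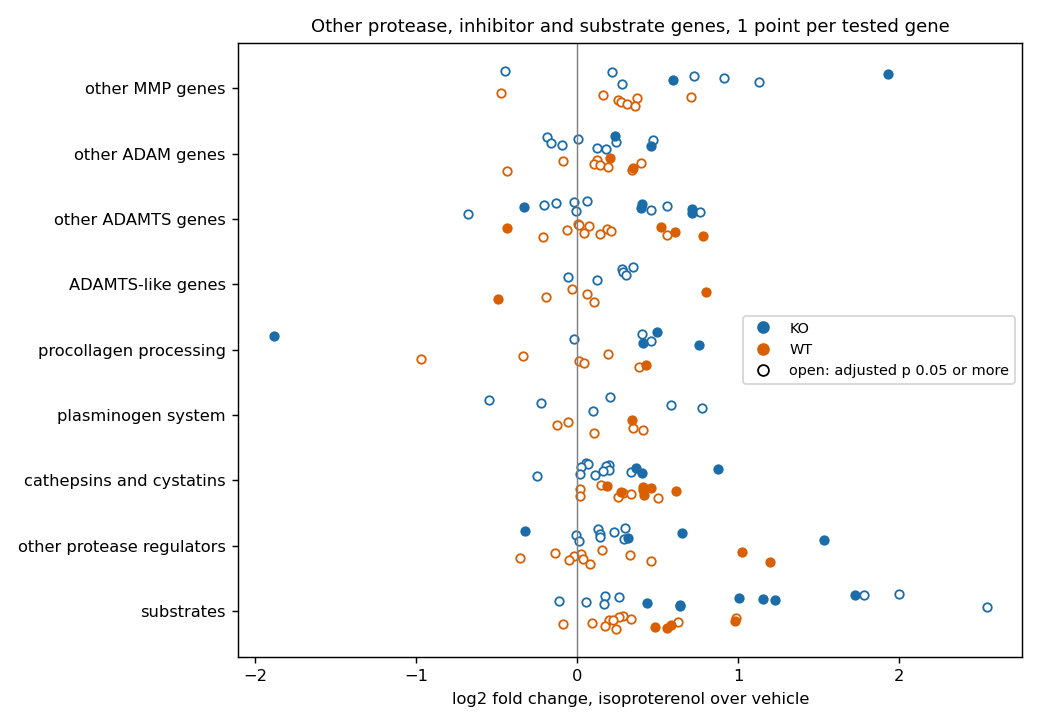
Log2 fold change of isoproterenol over vehicle for each tested gene of 9 lists, 1 point per gene, KO hearts above WT hearts in each list, with filled points where the adjusted p was under 0.05. The 15 substrate genes lie almost all right of 0 (median 0.64 in KO hearts and 0.29 in WT hearts), and Mmp12 in KO hearts, at 1.93, is the farthest filled point to the right.

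Markers of several cell types moved in the same hearts. The 8 fibroblast markers summed to 1303 to 1409 CPM in KO isoproterenol hearts against 1093 to 1249 in KO vehicle hearts, and to 1183 to 1272 CPM in WT isoproterenol hearts against 980 to 1120 in WT vehicle hearts. The 6 activated fibroblast markers summed to 129 to 461 CPM in KO isoproterenol hearts against 60.0 to 81.7 in KO vehicle hearts, and to 124 to 190.2 CPM in WT isoproterenol hearts against 53.9 to 73.8 in WT vehicle hearts. The 10 macrophage markers summed to 179 to 206 CPM in KO isoproterenol hearts against 157 to 165 in KO vehicle hearts, and to 150.1 to 222 CPM in WT isoproterenol hearts against 133 to 164 in WT vehicle hearts. These 3 lists were thus higher after isoproterenol, without overlap except for macrophage markers in WT hearts. The 8 cardiac myocyte markers were lower, at 19352 to 25850 CPM in KO isoproterenol hearts against 26001 to 28383 in KO vehicle hearts, and at 23568 to 25920 CPM in WT isoproterenol hearts against 27641 to 33810 in WT vehicle hearts. Gene by gene, 3 of 8 fibroblast, 4 of 5 tested activated fibroblast and 3 of 10 macrophage markers rose in KO hearts, and 4, 2 and 5 of them in WT hearts, while 2 of 8 myocyte markers fell in KO hearts and 4 in WT hearts. Of all tested genes, 4.75% rose and 4.29% fell in KO hearts, and 4.64% rose and 4.12% fell in WT hearts. Lum, a fibroblast marker that rose in both genotypes, was also counted among the matrix genes above. Of the activated fibroblast markers, Comp lost its KO call without KO isoproterenol replicate 5 (adjusted p = 0.116). The 9 monocyte and neutrophil markers stayed under 10 CPM in sum, and the 8 lymphocyte markers reached at most 3.29 CPM. Of 3 tested monocyte and neutrophil markers, 1 rose in KO hearts (Ccr2) and 1 in WT hearts (S100a8). The 8 endothelial markers summed to 617 to 716 CPM in KO isoproterenol hearts against 646 to 745 in KO vehicle hearts. The lowest KO isoproterenol sums of the myocyte and of the endothelial markers were those of replicate 5. In WT hearts they summed to 696 to 761 CPM under isoproterenol against 621 to 656 under vehicle, without overlap. Of them, 4 rose in WT hearts and 1 fell in KO hearts. The WT call of Cdh5 was lost in 23 of 32 alternatives. The 8 smooth muscle and pericyte markers summed to 738 to 1734 CPM in KO isoproterenol hearts against 648 to 763 in KO vehicle hearts, and to 710.1 to 813 CPM in WT isoproterenol hearts against 598 to 692 in WT vehicle hearts, without overlap in WT hearts, and 1 of them rose in KO hearts and 2 in WT hearts. The 6 erythroid markers summed to 309 to 645 CPM in KO isoproterenol hearts against 249.8 to 370.0 in KO vehicle hearts, and to 223 to 344 CPM in WT isoproterenol hearts against 287 to 464 in WT vehicle hearts. Of the erythroid markers, 1 (Slc4a1) rose in KO hearts, a call lost without KO isoproterenol replicate 5 (adjusted p = 0.161). No marker on these lists was at 0 in all 20 libraries. The part of cell composition in the members' changes was not tested, and in bulk tissue fewer cells of a type and less RNA per cell cannot be told apart.

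Within groups, some members varied together. After each group's mean was removed from log2 CPM, Adamts2 and Timp2 had a Pearson r of 0.85 over the 20 libraries, and 0.64 over the 18 left without the 2 libraries that stood apart. Mmp2 and Timp2 had an r of 0.74, which was 0.50 over the 18, and Mmp15 and Timp3 an r of -0.57, which was -0.59 over the 18. KO vehicle replicate 5, which is among the 18, lay apart in its group for both Mmp15 (highest, 69.2 CPM) and Timp3 (lowest, 240.7 CPM). The r of Mmp15 and Timp3 without that library was not computed. Over all tested genes with an average log2 CPM of at least 1, those most like Adamts2 were the fibrillar collagen genes Col5a1 (r = 0.96), Col1a2 (0.95) and Col1a1 (0.94). Without the 2 libraries they were Col5a1 (0.91), Notch2 (0.87) and Col1a1 (0.84). Timp2 was most like Tgfb3 (0.92), Mfap4 (0.91) and Serpinf1 (0.91), Mmp2 most like Arpc1b and Mxra8 (both 0.87), Mmp15 most like Plxnd1 (0.85) and Timp3 most like Cry2 (0.91). The gene nearest to Mmp3 was Penk (0.78), that nearest to Mmp14 was Mpdu1 (0.80), to Adam8 Pinx1 (0.80), to Timp1 Sox5 (0.77) and to Timp4 Alg12 (0.75). Without the 2 libraries the nearest gene was another one for every member but Adamts2 and Mmp15: Sept8 for Timp2 (0.84), Homez for Mmp2 (0.84), Pdgfd for Timp3 (0.92), Slco2b1 for Mmp3 (0.87), Tmem106a for Mmp14 (0.84), Pan3 for Adam8 (0.81), Xrcc2 for Timp1 (0.83) and Caprin2 for Timp4 (0.85). The points share their libraries, depth and RNA preparation, so these coefficients describe these libraries only.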

How the data were processed

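Per the labels' protocols, hearts were powdered and RNA from an aliquot went into a strand-specific total RNA kit. The deposited values are raw counts per gene. Per the submitters' processing notes, the build was GRCm38 and the tools were HISAT2 2.1.0, featureCounts 1.6.3, limma 3.40.6 and R 3.6.0. The sources used here give no annotation release, strand setting or rule for multiply mapped reads. Of 55335 gene IDs, 55154 were found in GENCODE vM21, which gave symbols and coordinates, and 0 columns lacked a sample.

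Counts were fitted in R 4.3.3 with edgeR 4.0.16 (filterByExpr, TMM scaling, robust quasi-likelihood) over all 20 libraries with a mean per group, leaving 14878 genes and 16 residual degrees of freedom. The threshold was an adjusted p under 0.05 (Benjamini-Hochberg over all tested genes). Intervals are 95%. The scripts were tested on simulated data. CPM are TMM-scaled, and RPKM divide them by exon length. The 12 alternatives included DESeq2 1.42.0, limma-voom (limma 3.58.1), other scalings and filters, 2 surrogate variables (sva 3.50.0) and leaving out both libraries that stood apart; each of the 20 libraries was also left out in turn. No pair of libraries in a group was a duplicate. The members, the lists of other genes and markers, the tests and the alternatives were chosen with earlier results of these data known. Some genes are on more than 1 list, among them Lum, Dcn, Fap, Adamts3 and Adamts14. All members were named; from the lists, up to 4 genes with the smallest p that passed were named, and Mmp9 and Col1a1 were added after their values were seen.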

Additional observations from a re-analysis of the deposited data

Results flagged for a closer look

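In 7 of 40 combinations of gene and group, the highest or lowest of the 5 libraries lay apart, its gap to the nearest library exceeding 0.710 of the group's range (Dixon's criterion). Chance gives about 1 in 20 groups. KO isoproterenol replicate 5 accounted for 4 of them. It was the highest of its group for Adamts2, at 90.5 CPM with the next library at 39.3 CPM, and for Mmp14, at 16.0 CPM with the next at 10.9 CPM. It was the lowest for Adam8, at 1.43 CPM with the next at 2.79 CPM, and for Timp3, at 265.1 CPM with the next at 348 CPM. This is also the library with the highest sums of smooth muscle and pericyte markers (1734 CPM), activated fibroblast markers (461 CPM) and erythroid markers (645 CPM) in its group, and their part in these values was not tested. KO vehicle replicate 5 was the highest of its group for Mmp15, at 69.2 CPM with the next at 48.1 CPM, and the lowest for Timp3, at 240.7 CPM with the next at 327 CPM. WT isoproterenol replicate 2 was the highest of its group for Mmp15, at 62.9 CPM with the next at 49.1 CPM. All 7 KO calls held without KO isoproterenol replicate 5. No member had a response to isoproterenol that differed between genotypes by the test of the difference.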

How the results depend on the processing

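No paired analysis was possible because the labels give no replicate numbers, and those used here only name the libraries. Of 590 values of single members under the 12 alternatives that keep or jointly drop libraries, 565 kept their direction and their side of the threshold, 16 passed newly, 2 no longer passed and 7 turned direction, all of these near 0. Leaving out 1 library in turn gave 1000 values, of which 968 were kept, 5 passed newly, 8 no longer passed and 19 turned. The WT response of Mmp15 turned to -0.030 with voom quality weights, -0.038 with 2 surrogate variables and -0.044 without both libraries that stood apart. That of Timp3 turned to 0.046 with 2 surrogate variables and 0.0032 without both libraries. Without both, Mmp14 turned to -0.043 between genotypes under isoproterenol and to -0.0071 in the difference between responses. With 1 library left out, the WT response ranged over -0.092 to 0.084 for Mmp15 and -0.10 to 0.0055 for Timp3. KO over WT under vehicle then ranged over -0.17 to 0.068 for Mmp15, -0.14 to 0.027 for Mmp14, -0.060 to 0.22 for Timp1 and -0.028 to 0.11 for Timp3. KO over WT under isoproterenol ranged over -0.030 to 0.28 for Adam8 and -0.043 to 0.18 for Mmp14, and the difference between responses over -0.017 to 0.14 for Mmp2 and 0.018 to 0.26 for Mmp14. Members called lower in WT hearts numbered 1 in place of 0 with voom quality weights, no filter, or without both libraries, and members called higher in KO over WT under isoproterenol 1 in place of 0 with DESeq2, voom quality weights, no filter or 2 surrogate variables. Leaving out 1 library gave 2 to 6 members higher in WT hearts, 6 in KO hearts and 0 to 1 between genotypes under isoproterenol. Over all genes, 857 passed in WT hearts with library totals only, against 1304 with TMM. Between genotypes under vehicle 61 passed with DESeq2, 40 with voom quality weights, 117 with no filter, 54 with 2 surrogate variables and 38 without both libraries, against 19. Under isoproterenol these counts were 128, 62, 250, 119 and 50, with 12 for library totals only, against 27. For the difference between responses they were 5 with DESeq2, 34 with no filter and 4 without both libraries, against 0. Leaving out 1 library gave 10 to 35, 10 to 55 and 0 to 1 genes in these 3 comparisons, 1001 to 1442 in KO hearts and 882 to 1686 in WT hearts. Among named genes of the other lists and markers, 26 of 38 KO calls and 25 of 40 WT calls held in every alternative. The causes were not tested. Adam8 had the lowest counts, 12 to 135 per library, and intervals cover the spread between these libraries only. A fit of the compared groups alone gives no value for the difference between responses.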
